A study of Homo sapiens with 12 samples.

Results

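A set of 10 regulators of the stress response whose mRNAs are known to carry upstream open reading frames were followed in a ribosome profiling table of HEK293 cells. They are ATF4, ATF5, DDIT3, PPP1R15A, PPP1R15B, IFRD1, CEBPB, CEBPG, TRIB3 and SESN2, taken by gene symbol as regulators tied to phosphorylation of the initiation factor eIF2. All 10 were found among the 19219 gene rows, and 9 of them, all but TRIB3, lay above the level filter described below. HEK293 is an established human embryonic kidney line. The groups were CRISPR-Cas9 CNBP knockout cells given harringtonine and cycloheximide (1 library), wild-type cells given the same drugs (3 libraries), CNBP knockout cells given cycloheximide (3 libraries) and wild-type cells given cycloheximide (5 libraries). Cycloheximide stalls elongating ribosomes and was used in every group, whereas harringtonine holds ribosomes at start codons while earlier ones run off. How many knockout clones were used is not stated in the labels, so a clone and the knockout cannot be told apart, and nothing in the labels names separate cultures.

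When eIF2 is phosphorylated by one of its kinases, general initiation slows, and ribosomes that have translated a short upstream frame take longer to become able to initiate again. In mRNAs such as that of ATF4 this lets them pass an inhibitory upstream frame and reach the main coding sequence. ATF4 and its partners then raise transcription of genes for amino acid supply, redox balance and cell fate, and PPP1R15A closes the loop by bringing a phosphatase to eIF2. The deposited densities are per gene, so footprints on an upstream frame and on the main frame of the same mRNA cannot be told apart here.

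Only an average per group was used. There is therefore no spread between replicates, no test between groups and no p-value, and intervals below are 95% counting intervals on reads estimated from the table. In a bulk lysate, fewer ribosomes on each mRNA and less of that mRNA cannot be told apart from densities alone. The estimated reads over the usable genes with harringtonine were 400911 in the knockout and 1133812 in wild type. With cycloheximide they were 848679 in the knockout and 2142602 in wild type. The HEK293 markers VIM, KRT8, KRT18 and INA had densities between 0.0918 and 3.95 in all groups, PAX2 had at most 0.0365, NEFM was listed at 0, and NEFL was not used here. Of 7 markers of other cell types, PTPRC, CD3E, ALB and LCN2 were at 0 throughout. COL1A1 had 0.0323 to 0.0610 over the 4 groups, HBB at most 0.134 and CD34 0.00396 in wild type with harringtonine alone. CNBP itself still had footprints in the knockout. Its log2 ratio of knockout over wild type on the deposited scale was -0.47 with harringtonine and -0.76 with cycloheximide. Relative to the median gene, as ratios are given below, it was -0.19 and -0.32.

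Members include factors that act at promoters as well as being controlled by upstream frames, and a few promoters are shown for that reason. In RefSeq windows of GRCh38.p14, 10 of 10 members matched, with 21 start sites among them, and the 250 bases before each start were searched on both strands. The cAMP response element TGACGTCA, bound by ATF and CREB factors, was found upstream of PPP1R15A and IFRD1. It was in 3 of the 21 member windows and in 1.65% of all 35116 windows. The windows of IFRD1 that hold it overlap and share the same element. The C/EBP-ATF response element TGATGNAA, bound by ATF4 paired with a C/EBP protein, was found upstream of CEBPG and PPP1R15B. It was in 2 of the 21 member windows and in 3.14% of all windows. The last 120 bases before the start are given below on the plus strand, with the element in capitals. They lie at chr19:48872301-48872420 for PPP1R15A, chr7:112450340-112450459 for IFRD1 and chr19:33373993-33374112 for CEBPG.
PPP1R15A: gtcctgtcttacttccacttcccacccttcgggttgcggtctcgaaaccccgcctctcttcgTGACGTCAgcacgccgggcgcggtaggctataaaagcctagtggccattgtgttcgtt
IFRD1: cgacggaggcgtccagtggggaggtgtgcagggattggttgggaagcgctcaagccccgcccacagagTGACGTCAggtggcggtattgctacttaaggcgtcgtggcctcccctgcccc
CEBPG: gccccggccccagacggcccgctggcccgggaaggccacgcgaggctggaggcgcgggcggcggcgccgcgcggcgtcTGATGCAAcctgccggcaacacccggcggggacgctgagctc
The element begins 58 bases before the start in PPP1R15A, 52 in IFRD1 and 42 in CEBPG. These matches describe the letters of the windows only, and none was tied to a density.

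The median over all 10 members, TRIB3 included, lay below the median of the genes compared in footprint density in every group. Their median density was 0.210 in the knockout and 0.130 in wild type with harringtonine, and 0.155 in the knockout and 0.165 in wild type with cycloheximide. The medians of the 6045 genes compared were 0.250, 0.297, 0.216 and 0.272 in the same groups. Densities are the authors' averages and can be set side by side between genes only on the deposited scale. Which length they were divided by, if any, is not stated in the sources used here. The length of the longest transcript was used only to estimate reads. The genes compared are those with all 4 averages above 0 and a geometric mean of the 4 above 0.114, the median over such genes. They are thus the denser part of the 12091 genes with all 4 averages above 0. Among those 12091, the geometric mean stood above 37.7% of genes for TRIB3, 50.9% for ATF5 and 89.0% for ATF4. The other members lay between ATF5 and ATF4. TRIB3 had a geometric mean of 0.0807 and lies under that level, and ATF5 at 0.117, CEBPG at 0.119 and SESN2 at 0.122 lie just above it. Some members would not have passed without a group where they were high. Without the knockout with harringtonine, the mean over the other 3 groups was 0.0911 for DDIT3, 0.0973 for CEBPG and 0.106 for SESN2, and without the knockout with cycloheximide it was 0.103 for ATF5. Leaving out wild type with cycloheximide gave 0.110 for DDIT3, 0.105 for CEBPG and 0.112 for SESN2. Counts over the 9 are therefore descriptions and support nothing.

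**Figure D1:**
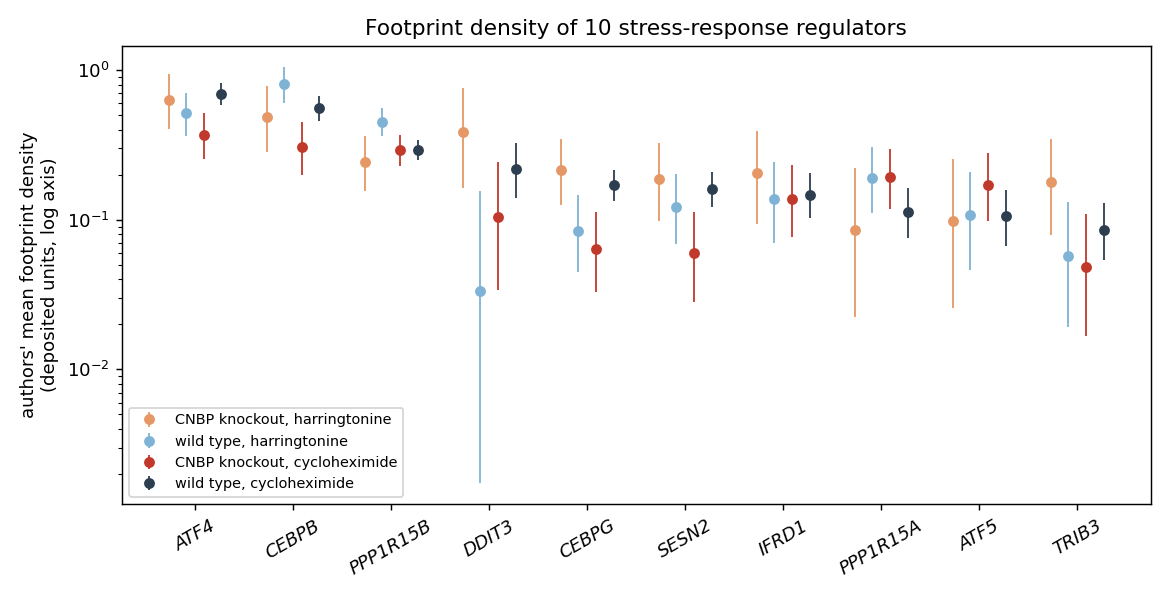
Authors' average footprint density on a log axis for each of the 10 regulators, with points for the knockout and wild type under harringtonine and under cycloheximide and bars for the 95% Poisson counting interval. ATF4 and CEBPB are the densest members in 3 and 1 of the groups, and DDIT3 in wild type with harringtonine, at 0.0334, is the lowest point.

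ATF4 and CEBPB led the order of levels. In wild type with cycloheximide ATF4 had 0.694, CEBPB 0.558 and PPP1R15B 0.294, and the counting interval of PPP1R15B did not reach that of CEBPB. From PPP1R15B down through DDIT3 (0.218), CEBPG (0.170), SESN2 (0.160), IFRD1 (0.147), PPP1R15A (0.113), ATF5 (0.106) and TRIB3 (0.0859), each member's interval overlapped that of the one above it. In the knockout with cycloheximide the order was ATF4, CEBPB, PPP1R15B, PPP1R15A, ATF5, IFRD1, DDIT3, CEBPG, SESN2 and TRIB3, and every pair of neighbours overlapped. ATF4 stood above 81.1% of the genes compared in wild type with cycloheximide, whereas TRIB3 stood above 0.562%. The genes compared had all passed the level filter, under which TRIB3 lies.

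With cycloheximide, PPP1R15A and ATF5 were at least 2-fold higher in the knockout. ATF4, DDIT3, CEBPB, CEBPG, SESN2 and TRIB3 lay below the median gene, and among these only the counting interval of CEBPG excluded 0. Each log2 ratio was centred on the median gene, which stood at -0.44 for knockout over wild type with cycloheximide on the deposited scale. Of the 9 members compared, 2 were at least 2-fold higher, where 4.43% of all genes were, and 0 were at least 2-fold lower, where 3.24% were. Of the 2, ATF5 falls under the level filter without the knockout with cycloheximide. The median of the 9 was -0.42, with 4 above and 5 below the median gene. The counting interval excluded 0 for 4 of the 9 and for 29.2% of all genes. Without centring the split was 0 higher and 3 lower, against 0.976% and 14.0% of all genes. The 3 are DDIT3, CEBPG and SESN2, which fall under the level filter without wild type with cycloheximide, where they were higher. With a pseudocount of 0.1 the split was 0 and 0, against 0.926% and 0.811%.

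Among the factors, ATF4 (ENSG00000128272, hg19 chromosome 22, 39915700 to 39918691, plus strand), the central activator of the response, had densities of 0.368 in the knockout and 0.694 in wild type. Its log2 ratio was -0.47 (interval -1.06 to 0.08), which includes 0. CEBPG (ENSG00000153879, chromosome 19, 33864236 to 33873592, plus strand), a C/EBP protein that pairs with ATF4, had 0.0643 in the knockout and 0.170 in wild type. Its ratio of -0.96 (-1.98 to -0.06) was the only one on the lower side whose interval excluded 0, and it rested on 11.9 and 71.5 estimated reads. DDIT3 (ENSG00000175197, chromosome 12, 57910371 to 57914300, minus strand), also called CHOP and known for driving cell death under lasting stress, had 0.104 and 0.218. With 5.00 and 23.8 estimated reads its ratio of -0.62 had an interval of -2.37 to 0.80. CEBPB (ENSG00000172216, chromosome 20, 48807376 to 48809212, plus strand), a factor translated from several start codons, was -0.42 (-1.11 to 0.21), from 0.306 in the knockout and 0.558 in wild type.

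ATF5 (ENSG00000169136, chromosome 19, 50431959 to 50437192, plus strand), a close relative of ATF4 linked to mitochondrial stress, went the other way. It had 0.171 in the knockout and 0.106 in wild type, a ratio of 1.14 (0.12 to 2.13) from 16.0 and 22.4 estimated reads. ATF4 and ATF5 thus lay on opposite sides of the median gene, and only the interval of ATF5 excluded 0.

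Both regulatory subunits of the eIF2 phosphatase were above the median gene with cycloheximide. PPP1R15A (ENSG00000087074, chromosome 19, 49375649 to 49379314, plus strand), the stress-induced subunit GADD34, had 0.192 in the knockout and 0.113 in wild type. Its ratio was 1.21 (0.31 to 2.08), and 97.9% of the genes compared were lower. PPP1R15B (ENSG00000158615, chromosome 1, 204372515 to 204380919, minus strand), the constitutive subunit CReP, had 0.294 in the knockout and 0.294 in wild type. Equal densities put it at 0.44 relative to the median gene (0.01 to 0.86), and at -0.00092 on the deposited scale.

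The remaining members are effectors. SESN2 (ENSG00000130766, chromosome 1, 28586038 to 28609002, plus strand), a leucine sensor that restrains mTORC1, had 0.0603 in the knockout and 0.160 in wild type, a ratio of -0.97 (-2.14 to 0.04). TRIB3 (ENSG00000101255, chromosome 20, 361261 to 378203, plus strand), a pseudokinase induced by ATF4 and DDIT3 that restrains ATF4, had 0.0482 and 0.0859, a ratio of -0.39 (-2.07 to 1.01). IFRD1 (ENSG00000006652, chromosome 7, 112063023 to 112121072, plus strand), a transcriptional co-regulator whose mRNA decay depends on its upstream frame, had 0.139 and 0.147. Its ratio of 0.36 (-0.64 to 1.28) was within counting error of the median gene.

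With harringtonine, DDIT3, TRIB3 and CEBPG were higher in the single knockout library than in wild type. DDIT3 had a density of 0.385 in the knockout and 0.0334 in wild type, with 7.78 estimated reads in the knockout. Its log2 ratio was 3.81, with an interval of 1.13 to 8.27, and wild type held only 1.30 estimated reads. CEBPG had 0.216 in the knockout and 0.0845 in wild type, a ratio of 1.64 (0.50 to 2.81) from 16.8 and 12.6 estimated reads. TRIB3 had 0.179 and 0.0572, a ratio of 1.93 (0.19 to 3.84). For these 3 members the intervals lay above 0, and 18.5% of all genes compared had an interval that excluded 0.

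SESN2 (0.188 in the knockout and 0.123 in wild type), IFRD1 (0.205 and 0.138) and ATF4 (0.630 and 0.516) were on the same side with smaller ratios. Those ratios were 0.90 (-0.31 to 2.08), 0.86 (-0.59 to 2.25) and 0.57 (-0.23 to 1.35), and each interval includes 0. The phosphatase subunits and CEBPB were on the lower side. PPP1R15A had 0.0854 in the knockout and 0.191 in wild type, a ratio of -0.88 (-2.96 to 0.77). PPP1R15B had 0.243 and 0.452, a ratio of -0.61 (-1.33 to 0.05), and CEBPB 0.489 and 0.809, a ratio of -0.44 (-1.32 to 0.37). ATF5, with 0.0976 and 0.107, stood at 0.15 (-2.08 to 2.07).

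Of the 9 members compared with harringtonine, 2 were at least 2-fold higher in the knockout, where 6.72% of all genes were, and 0 were at least 2-fold lower, where 6.58% were. Their median was 0.57, with 6 above and 3 below the median gene, which itself stood at -0.28 on the deposited scale. The 2 are DDIT3 and CEBPG, which fall under the level filter without the knockout library in which they were high. With no level filter 3 of 10 were higher, against 13.0% of all genes. Without centring 2 of the 9 were higher and 1 lower, against 3.14% and 12.5% of all genes. With a pseudocount of 0.1 only DDIT3 was at least 2-fold higher, against 2.22% of all genes, and with a pseudocount of 1 there was 0, against 0.0827%. The knockout has 1 library here and hence no check between replicates, so library and genotype cannot be told apart.

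**Figure D2:**
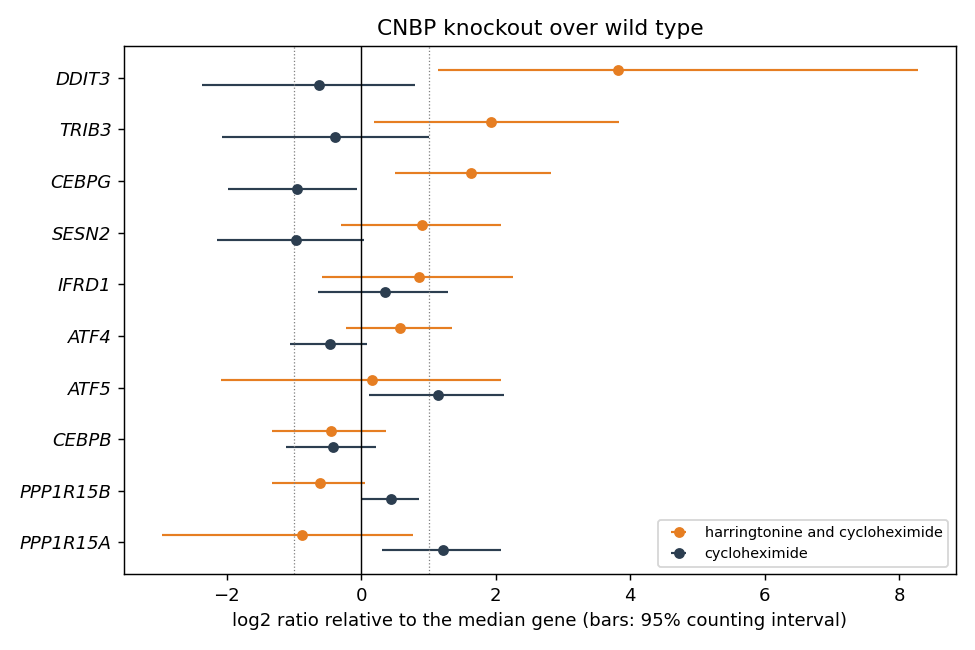
Log2 ratio of knockout over wild type, relative to the median gene, for each of the 10 regulators with harringtonine and with cycloheximide alone. Bars are 95% counting intervals and dotted lines mark a 2-fold ratio. DDIT3, TRIB3, CEBPG, SESN2 and ATF4 lie right of 0 with harringtonine and left of it with cycloheximide, and both PPP1R15 genes lie the opposite way.

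The knockout ratio was next compared between treatments. The difference between the ratio with harringtonine and that with cycloheximide, computed over 4 separate sets of libraries, was 4.44 for DDIT3 (interval 1.42 to 7.46), 2.59 for CEBPG (1.22 to 3.97), 2.32 for TRIB3 (0.24 to 4.40), 1.87 for SESN2 (0.40 to 3.34) and 1.04 for ATF4 (0.13 to 1.96). It was -2.09 for PPP1R15A (-3.89 to -0.29) and -1.06 for PPP1R15B (-1.82 to -0.29). These 7 intervals, 6 of them among the 9 members compared, excluded 0, whereas those of IFRD1 (0.50), CEBPB (-0.02) and ATF5 (-0.99) did not. The interval excluded 0 for 18.6% of all genes compared. Among the 9 members compared, 4 were at least 2-fold on the harringtonine side, where 9.41% of all genes were, and 2 at least 2-fold on the cycloheximide side, where 10.7% were. Of the 4, all but ATF4 fall under the level filter without the knockout with harringtonine.

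In terms of sides alone, the same 4 of the 9 were above the median gene with harringtonine and below it with cycloheximide, where 21.6% of all genes were. Another 2, the phosphatase subunits, were below with harringtonine and above with cycloheximide, where 21.6% of genes were as well. On the deposited scale ATF4, DDIT3, CEBPG, SESN2 and PPP1R15A kept their sides, whereas PPP1R15B, at -0.00092 with cycloheximide, did not. The intervals of these differences rest on a normal approximation to counting error and leave out the spread between replicates.

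In the knockout, CEBPG and SESN2 were higher with harringtonine than with cycloheximide, with intervals above 0. The interval excluded 0 for 15.4% of all genes compared. These ratios share libraries with the knockout comparisons above and are given side by side with them, not as further support. DDIT3 had 0.385 with harringtonine and 0.104 with cycloheximide, a ratio of 1.61 (-0.19 to 3.58), and CEBPG 0.216 and 0.0643, a ratio of 1.47 (0.31 to 2.67). SESN2 was 1.37 (0.02 to 2.76) and TRIB3 1.62 (-0.11 to 3.49). On the lower side PPP1R15A was -1.45 (-3.50 to 0.15), ATF5 -1.08 (-3.18 to 0.57) and PPP1R15B -0.55 (-1.29 to 0.14). ATF4 stood at 0.50, CEBPB at 0.40 and IFRD1 at 0.29, each with an interval that includes 0. Of the 9 compared, 3 were at least 2-fold higher, where 5.51% of all genes were, and 2 at least 2-fold lower, where 6.82% were. The 3 are DDIT3, CEBPG and SESN2, which fall under the level filter without the knockout with harringtonine. Of the 2, ATF5 falls under it without the knockout with cycloheximide. Without centring the split was 3 and 1, against 10.7% and 3.37% of all genes. With a pseudocount of 0.1 it was 1 and 0, against 1.56% and 1.94%. The median gene stood at 0.27 in the knockout and at 0.11 in wild type on the deposited scale.

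In wild type, DDIT3 and CEBPG were lower with harringtonine than with cycloheximide. DDIT3 had 0.0334 with harringtonine and 0.218 with cycloheximide, a ratio of -2.82 (interval -7.15 to -0.44). CEBPG had 0.0845 and 0.170, a ratio of -1.12 (-2.11 to -0.24). These were the 2 of 9 members at least 2-fold lower, where 3.31% of all genes were, and 0 of 9 were at least 2-fold higher, where 3.41% were. Without wild type with cycloheximide, the geometric mean of the other groups was 0.110 for DDIT3 and 0.105 for CEBPG, under the level filter. ATF4 stood at -0.54 (-1.09 to -0.01) and PPP1R15B at 0.51 (0.11 to 0.90), the other members whose intervals excluded 0, as did those of 26.7% of all genes compared. PPP1R15A (0.65), CEBPB (0.43), ATF5 (-0.09), IFRD1 (-0.21), SESN2 (-0.50) and TRIB3 (-0.70) had intervals that include 0. With a pseudocount of 0.1 only DDIT3 was at least 2-fold lower, against 1.06% of all genes.

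**Figure D3:**
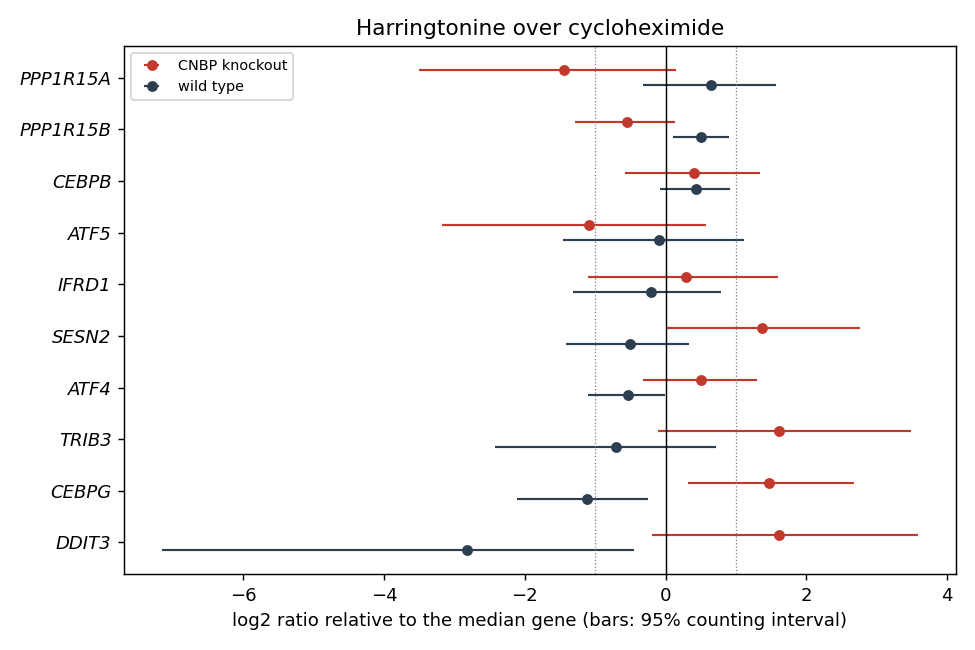
Log2 ratio of harringtonine over cycloheximide, relative to the median gene, in the CNBP knockout and in wild type. Bars are 95% counting intervals and dotted lines mark a 2-fold ratio. DDIT3 and CEBPG lie at 1.61 and 1.47 in the knockout and at -2.82 and -1.12 in wild type.

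A second readout in the authors' deposited table put all 10 members on one side. The table holds a log2 ratio named LFC and a value named TE for each treatment. LFC equals the log2 ratio of the wild-type average over the knockout average in the rows used. No header gives a direction for TE, and reading it in the direction of LFC was not tested. In all 12241 genes with LFC and TE in both treatments, TE minus LFC was the same with harringtonine as with cycloheximide, within 1e-06. It is thus 1 amount per gene, shared by both treatments. TE commonly stands for translational efficiency, footprints per mRNA. On that reading, and in the direction of LFC, the amount would be the log2 mRNA ratio of knockout over wild type. The header does not expand TE, and the reading was not tested.

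TE minus LFC was above 0 for 9 of the 9 members compared and for TRIB3, where it was above 0 for 51.6% of the genes compared. In the authors' deposited table DDIT3 had the highest value of the members, 0.81, and 99.7% of the genes compared were lower. SESN2 followed at 0.57 (99.3% lower), PPP1R15A at 0.55 (99.2%), ATF5 at 0.48 (98.7%) and TRIB3 at 0.46 (98.4%). IFRD1 had 0.38 (97.3%), CEBPB 0.36 (97.0%), CEBPG 0.36 (96.9%), ATF4 0.24 (92.2%) and PPP1R15B 0.21 (89.1%). The median over the 10 was 0.42, against 0.0062 over the genes compared, of which 90% lie between the percentiles at -0.33 and 0.30.

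**Figure D4:**
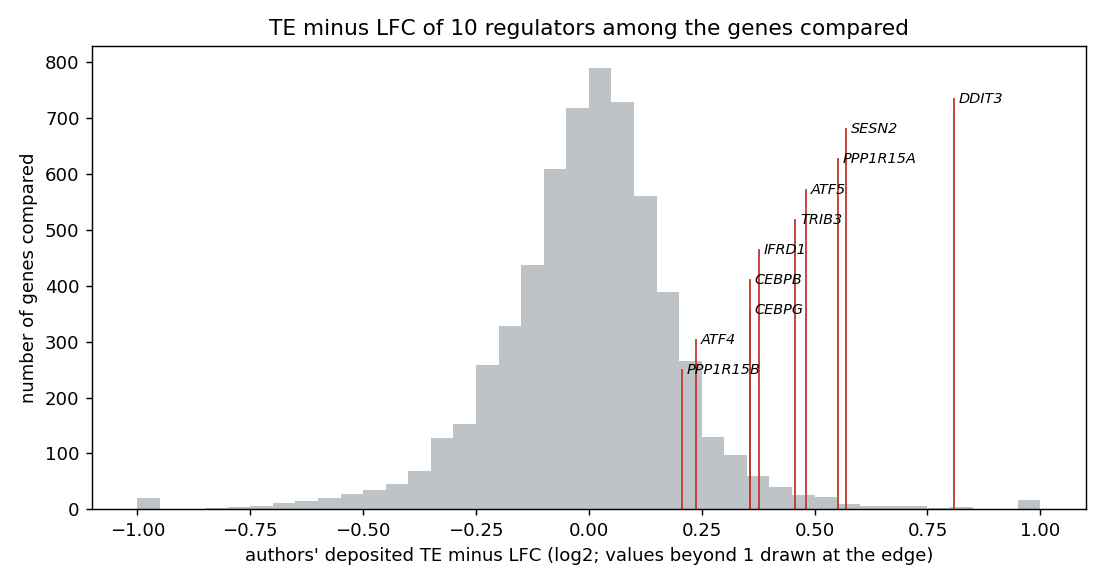
Histogram of TE minus LFC in the authors' deposited table (log2, 1 value per gene) over the 6045 genes compared, with red lines at the 10 regulators. The regulators run between 0.21 for PPP1R15B and 0.81 for DDIT3, all right of the median gene at 0.0062, and TRIB3 is drawn although it lies under the level filter.

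Because TE minus LFC was positive for every member, TE read in the direction of LFC lay further to the wild-type side than LFC. In the authors' deposited table TE with cycloheximide was 1.98 for SESN2, 1.88 for DDIT3 and 1.76 for CEBPG. Only 0.811%, 1.14% and 1.52% of the genes compared had a higher TE. TE was 1.29 for TRIB3, 1.23 for CEBPB and 1.15 for ATF4. The authors' deposited TE of PPP1R15A and ATF5 was -0.21 for both, against an LFC of -0.76 and -0.70. Read in the direction of LFC, these members stayed on the knockout side. With harringtonine the deposited TE of DDIT3 was -2.72, against an LFC of -3.53.

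Genes that ATF4 or DDIT3 are known to drive were mostly below the median gene with cycloheximide. This list of 30 was written with earlier results of these data known, and 19 passed the level filter. With harringtonine 12 of the 19 were above the median gene and 7 below, with a median of 0.20. Of these, 1 was at least 2-fold higher and 1 lower, against 6.72% and 6.58% of all genes. With cycloheximide 6 were above and 13 below, with a median of -0.31. Of these, 0 were at least 2-fold higher and 2 lower, against 4.43% and 3.24% of all genes. The serine synthesis enzyme PSAT1 had 0.585 in the knockout and 1.67 in wild type with cycloheximide, a ratio of -1.07 (-1.49 to -0.66). The seryl-tRNA synthetase SARS had 0.361 and 1.00, a ratio of -1.03 (-1.63 to -0.48), and asparagine synthetase ASNS 0.643 and 1.58, a ratio of -0.85 (-1.25 to -0.48). MTHFD2, of mitochondrial folate metabolism, was 0.81 (0.39 to 1.23) with harringtonine and -0.43 (-0.74 to -0.12) with cycloheximide, the same pair of sides as ATF4. PCK2, a mitochondrial enzyme of gluconeogenesis, was the 1 target at least 2-fold lower with harringtonine, at -4.65 (-6.68 to -3.21), from 0.0757 in the knockout and 2.32 in wild type. The knockout value rests on 3.59 estimated reads in 1 library. In wild type PCK2 was itself higher with harringtonine than with cycloheximide, at 2.44 (2.09 to 2.80). With cycloheximide it had 0.223 in the knockout and 0.395 in wild type.

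In the same list TE minus LFC of the authors' deposited table was above 0 for 13 of 19 genes, with a median of 0.13. The values ran between -0.37 for AARS and 0.72 for DDIT4, a stress-induced inhibitor of mTORC1, genes chosen after their values were seen. Among the targets named above, PSAT1 had 0.32 and ASNS 0.40 in that table, within the range of the members. SARS had 0.17, PCK2 0.12 and MTHFD2 0.055, below every member.

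The machinery upstream of the members was followed in 15 genes for eIF2, its exchange factor eIF2B, the eIF2 kinases and their partners. Of these, 12 passed the level filter. With harringtonine 6 were above and 6 below the median gene, and with cycloheximide 4 were above and 8 below. The interval with cycloheximide lay below 0 for 4 of the 12 and above 0 for 0, and it excluded 0 for 29.2% of all genes. Those 4 were the 3 eIF2 subunits and the kinase HRI. With harringtonine it lay below 0 for 2 and above 0 for 1, and excluded 0 for 18.5% of all genes. The alpha subunit EIF2S1, which carries the phosphorylated serine, was -0.90 (-1.40 to -0.42) with cycloheximide, from 0.212 in the knockout and 0.537 in wild type. The beta subunit EIF2S2 was 0.40 (0.01 to 0.78) with harringtonine and -0.43 (-0.75 to -0.13) with cycloheximide. The gamma subunit EIF2S3 was 0.22 (-0.09 to 0.52) and -0.29 (-0.52 to -0.07). EIF2AK1, the heme-regulated kinase HRI, was -0.81 (-1.59 to -0.09) with harringtonine and -0.64 (-1.23 to -0.10) with cycloheximide. EIF2B1, of the exchange factor, was -1.36 (-2.40 to -0.45) with harringtonine, the only one of the 12 at least 2-fold from the median gene in either knockout comparison. TE minus LFC of the authors' deposited table was above 0 for 5 of the 12, with a median of -0.04.

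The other arms of the unfolded protein response were mixed. Of 15 genes tied to ATF6 and to IRE1 with XBP1, 9 passed the level filter. With harringtonine 3 were above and 6 below the median gene, and with cycloheximide 4 were above and 5 below. XBP1, the factor spliced by IRE1, was 0.78 (0.06 to 1.48) with cycloheximide, and MANF, a secreted protein of the endoplasmic reticulum, 0.91 (0.36 to 1.44). On the other side with cycloheximide, PDIA4, a disulfide isomerase, was -0.52 (-0.88 to -0.18) and the chaperone HSP90B1 -0.26 (-0.41 to -0.11). Of the 9, 1 was at least 2-fold lower with cycloheximide, against 3.24% of all genes. With harringtonine MANF was -0.87 (-1.79 to -0.05) and PDIA4 -0.92 (-1.41 to -0.46). TE minus LFC was above 0 for 5 of these 9 in the authors' deposited table, with a median of 0.0034.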

How the data were processed

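Members and gene lists were chosen with earlier results of these data known. The authors deposited 1 table with an average footprint signal per gene and group. TopHat and hg19 are named in the submitters' processing notes. No source used here gives the counting tool, the annotation or the factor per library. LFC and TE in the authors' deposited table are log2 values, held as a score because error cells stand among them. Knockout averages are the same deposited signal. Rows without a knockout value (918), on alternate sequences (290) or with an LFC differing by more than 1e-06 from the ratio of averages (175) were set aside.

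Ratios are log2 of 1 average over another minus the median over 6045 genes, with no pseudocount. Low products of density and longest transcript length that repeated were searched for steps, with no more steps than libraries. Such products numbered 7 in wild type with harringtonine, and 11 and 10 in the knockout and wild type with cycloheximide. They were sums of whole multiples of 3, 3 and 5 steps. In the knockout with harringtonine only 1 product repeated. It was taken as the step. The range searched ended below any larger multiple of it, so none could be seen. Estimated reads and intervals of that library rest on this 1 product. Products divided by the mean step gave estimated reads, whole within 0.01 for 7.43% of genes in the single knockout library, among them CEBPB and PPP1R15B. For the other members estimated reads are approximate. Intervals are Clopper-Pearson for ratios and Poisson for levels, and cover counting error only. Those for ratios were tested on simulated data with known steps and no error of length. That simulation does not cover the approximate reads of the single knockout library. Named genes were all members and, per list and comparison, up to 4 by ratio over counting error. The design provided for a table of averages by describing values with no test. Python 3.11.15, numpy 2.4.6, pandas 2.3.3 and scipy 1.17.1 were used.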

Additional observations from a re-analysis of the deposited data

How the results depend on the processing

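Of 185 member ratios under 6 other settings, 177 stayed inside their counting interval, 8 moved out of it and 0 of those at least 2-fold changed sign. Counts of members at least 2-fold from the median gene moved more. For knockout over wild type with harringtonine, 1 was lower without centring, and 1 and 0 were higher with pseudocounts of 0.1 and 1. For the same ratio with cycloheximide, 0 were higher and 3 lower without centring, 0 were higher with a pseudocount of 0.1, of 1 or with at least 30 estimated reads (2 members left), and 2 of 10 were lower with no level filter (9.16% of all genes). For harringtonine over cycloheximide in the knockout, 1 was lower without centring, 1 was higher and 0 lower with a pseudocount of 0.1, and 0 and 0 with 1. In wild type 1 and 0 were lower with pseudocounts of 0.1 and 1, and 0 with at least 30 reads (3 members left). In each setting the median of the members stayed between the median of their lower interval bounds and the median of their upper bounds. That span is as wide as the interval of a single member, and no interval of a median was computed. A pseudocount pulls ratios of low densities toward 0 by construction. Requiring 30 reads left 0 members in both comparisons that use the single knockout library, and 100 reads left 0 in all 4. With no level filter the lowest share of genes below a member in TE minus LFC was 86.0%, an alternative chosen after seeing the data, against 89.1%. No paired analysis was possible because the table holds 1 average per group, and leaving out replicates was not possible for the same reason. At 1.30 to 158 estimated reads per member and group, only large ratios are resolved.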

Other observations

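Other mRNAs reported to carry upstream frames and to stay translated under eIF2 phosphorylation numbered 8, and all passed the level filter. Their difference from the members was not tested. With harringtonine 5 were above and 3 below the median gene in the knockout ratio, and with cycloheximide 4 and 4, with 0 intervals excluding 0 in either. PTP4A1, a membrane-bound phosphatase, was closest to the pattern of ATF4 by sides, at 0.20 (-0.66 to 1.00) with harringtonine and -0.50 (-1.06 to 0.02) with cycloheximide. SLC35A4, whose upstream frame is itself translated, was -0.60 (-1.68 to 0.35) with cycloheximide. In wild type the mitochondrial carrier UCP2 had 0.0407 with harringtonine and 0.235 with cycloheximide, a ratio of -2.64 (-4.90 to -1.04), which sits near DDIT3 at -2.82. TE minus LFC in the authors' deposited table was above 0 for 5 of the 8, with a median of 0.10.

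Among paralogs of members, TRIB1 and IFRD2 passed the level filter, and SESN1, SESN3 and TRIB2 did not. IFRD2 was -1.09 (-2.86 to 0.35) with harringtonine and 0.66 (-0.38 to 1.63) with cycloheximide, whereas IFRD1 was above the median gene in both. TRIB1 was -0.91 (-2.82 to 0.62) and 0.67 (-0.02 to 1.33), the sides opposite to TRIB3. SESN1 and SESN3 had densities of 0.0332 and 0.0224 in the knockout, against 0.0932 and 0.0588 in wild type with cycloheximide, lower in the knockout as SESN2 was, and TRIB2 had 0.152 and 0.0741.

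Of 21 other bZIP factors, 5 passed the level filter, and TE minus LFC was above 0 for all 5 in the authors' deposited table (0.056 to 0.28). JUN was 0.45 (0.16 to 0.74) for knockout over wild type with cycloheximide, and the remaining 4 were below the median gene. NFE2L1 had 0.394 with harringtonine and 0.119 with cycloheximide in the knockout, and 0.518 and 0.216 in wild type, ratios of 1.45 (0.68 to 2.24) and 1.15 (0.73 to 1.57).

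Over the 4 group averages, the genes most like ATF4 among 1457 with at least 30 estimated reads in every group (ATF4 itself has 24.1 in the knockout with harringtonine and was kept as the query) were ZFHX3, SNRPF and ARPC3, at Euclidean distances of 0.042, 0.063 and 0.082 between log2 averages centred per group and per gene. With 4 points per gene this describes the table only.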
